A study of Mus musculus with 30 samples.

Results

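Krt7, Krt19, Krt23, Sox9, Epcam, Spp1, Cd24a and Pkhd1 are genes by which bile duct cells (cholangiocytes) and liver progenitor cells are usually recognised. The 8 genes were taken by name, not by their values, from 41388 genes with a deposited read count, and each was followed through 20 RNA-seq libraries in 6 groups. Cholangiocytes line the bile ducts and make up a small part of the liver, while hepatocytes fill most of it. In liver injury, hepatocytes can switch on part of the ductal programme under the Notch and Hippo-YAP pathways, and small progenitor-like cells that carry both kinds of marker can appear around the ducts. Whole-liver RNA mixes these sources, so fewer cells of a type and less RNA per cell cannot be told apart in these data.

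The study compared mice carrying an A1cf transgene or an A1cf deletion with wild-type mice; A1CF is an RNA-binding protein known as a partner of the editing enzyme APOBEC1. Hepatocytes came from 12-week-old mice, A1cf Tg/+ or C57BL/6J (3 pools each), after collagenase digestion of the liver and a night on collagen-coated dishes. Livers came from 12-month-old mice: 4 pools of A1cf Tg/+ beside 4 of C57BL/6J in one sequencing study, and 3 pools of A1cf -/- beside 3 of C57BL/6NJ in another. The promoter of the transgene and the deleted part of A1cf are not given in the sources used here, nor is whether transgene reads could align to the counted A1cf model. The preparation protocol names 3 pools per genotype and condition, while the labels list 4 samples for each of the first liver groups, so whether all 4 are separate pools is not known; they are called pools below. A pool held RNA of 3 to 4 mice, so p-values measure the spread between pools.

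A1cf RNA was low in the knockout livers but not raised under the Tg label. It stood at 20.1 to 28.9 CPM (counts scaled to the library total) in knockout livers against 199 to 237 in C57BL/6NJ livers, at 156 to 174 in livers labelled Tg against 216 to 279 in C57BL/6J livers, and at 7.36 to 10.5 in hepatocytes labelled Tg against 6.46 to 11.0 in wild-type ones. Its log2 fold changes in these 3 comparisons were -3.12 ± 0.15, -0.65 ± 0.11 and 0.02 ± 0.24 (SE; edgeR adjusted p = 1.59e-05, 0.0369 and 0.962). No group labelled Tg was therefore above its control in A1cf RNA, and these libraries are called "labelled Tg" below. Libraries held 17044839 to 37211328 counts. Summed over 12 skeletal muscle markers, C57BL/6J liver pool 2 held 2382 CPM and the knockout livers 24.3 to 133, against 0.767 to 1.27 in C57BL/6NJ livers. Endothelial and mesothelial markers were low in the hepatocyte pools: 10 endothelial markers summed to 56.9 to 81.1 CPM against 613 to 670 in C57BL/6J livers, and 7 mesothelial markers to 0.481 to 1.13 against 16.6 to 36.1. The sum of 14 macrophage markers was not, at 285 to 858 CPM against 253 to 489, but its genes split. In wild-type hepatocytes against C57BL/6J livers, 8 of 13 tested were lower and 3 higher (edgeR adjusted p below 0.05). Mean Clec4f was 5.10 against 64.4 CPM and Csf1r 4.80 against 70.3, while Cd9 was 96.8 against 9.17.

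The 3 keratins among the markers form the intermediate filaments of ductal cells. Krt7 and Krt19 are the standard duct stains, and Krt23 is a keratin with little expression in healthy liver. Sox9 is the transcription factor of ductal and progenitor identity and a target of Notch and YAP. Epcam and Cd24a encode cell-surface proteins, an adhesion molecule and a small glycosylphosphatidylinositol-anchored glycoprotein. Spp1 encodes osteopontin, a secreted protein that binds integrins and CD44 and that ducts, activated macrophages and stressed hepatocytes make. Pkhd1 encodes fibrocystin, a protein of the primary cilium whose loss causes polycystic kidney and liver disease.

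By length-corrected level (RPKM, which divides CPM by the gene's length in kilobases), Spp1 led in every group and Krt7 came last in every group. In C57BL/6J livers mean RPKM was 16.0 for Spp1, followed by Epcam (2.78), Krt19 (2.67), Pkhd1 (1.89), Krt23 (1.85), Sox9 (1.49), Cd24a (1.44) and Krt7 (0.186). Spp1 stood apart from Epcam and Cd24a from Krt7, while the neighbours between Epcam and Cd24a overlapped in range. In wild-type hepatocytes the order was Spp1 (466), Sox9 (31.3), Krt19 (3.63), Pkhd1 (1.78), Krt23 (1.13), Cd24a (0.195), Epcam (0.163) and Krt7 (0.0768). The last place of Krt7 in every group depends on the division by its model length. By mean CPM it was above Epcam and Cd24a in wild-type hepatocytes (0.542 against 0.332 and 0.353) but still lowest in C57BL/6J livers (1.31). Low counts limit Krt7, with 3 to 67 reads per library, and Epcam and Cd24a in hepatocytes, with 8 to 53. The deposited model of Krt7 is 7055 bases long, shares an exon with the antisense gene Gm671 and holds stretches of at least 60 bases found in transcripts of 30 other genes, so its reads are uncertain. Spp1 shares exon sequence with Gm42793, Cd24a has such a stretch in common with 1 other gene, and Pkhd1 shares an exon with 4930486I03Rik, which stood at no more than 0.201 CPM.

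**Figure D1:**
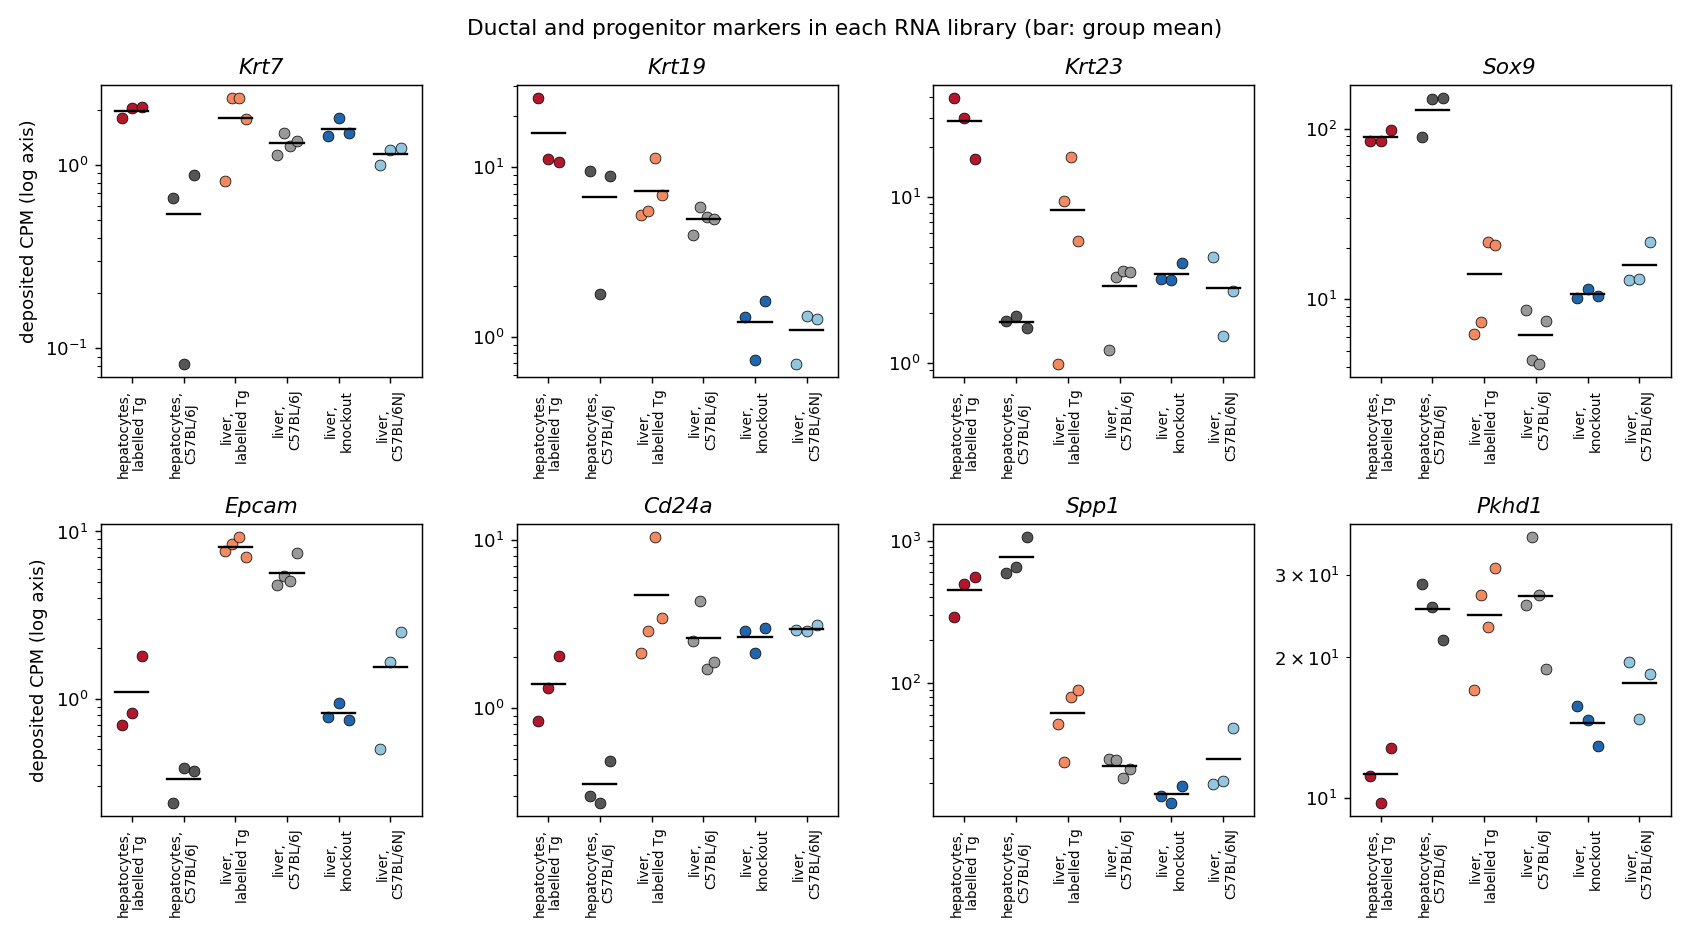
Deposited CPM of the 8 markers in each library on a log axis, 1 panel per gene; points are pools in the 6 groups and bars are group means. Krt23 of the 3 hepatocyte pools labelled Tg lies between 16.8 and 39.3 CPM, above every wild-type hepatocyte pool, and Sox9 and Spp1 are highest in plated hepatocytes of both genotypes.

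In plated hepatocytes labelled Tg, Krt23 was higher and Pkhd1 lower than in wild-type hepatocytes; these 2 of the 8 markers passed the threshold. Over all genes tested in this comparison, 3.15% passed it (edgeR quasi-likelihood test, Benjamini-Hochberg adjusted p below 0.05 over 13770 genes). The groups did not overlap in 7 of the 8 markers, Sox9 being the exception, beside 32.5% of all genes. The median log2 fold change of the 8 markers was 1.53, against -0.02 over all genes, and 5 of the 8 estimates were above 0.

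Krt23 (ENSMUSG00000006777; GRCm38 chr11:99477974-99493137, minus strand) stood at 39.3, 29.7 and 16.8 CPM in the pools labelled Tg and at 1.77, 1.90 and 1.62 in the wild-type pools. The lowest pool labelled Tg was thus far above the highest wild-type pool. Mean levels were 28.6 ± 11.3 and 1.76 ± 0.137 CPM (SD, n = 3 each), a ratio of 16.2, and the log2 fold change was 4.07 ± 0.37 (SE; edgeR adjusted p = 0.00848). Leaving out pool 2 labelled Tg (4.09, edgeR adjusted p = 0.0535) or wild-type pool 3 (4.00, 0.0811) ended the call. Those fits called 0.0839% and 0% of all genes.

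Pkhd1 (ENSMUSG00000043760; GRCm38 chr1:20057779-20618064, minus strand) ran the other way, at 11.1, 9.77 and 12.8 CPM in the pools labelled Tg and 28.7, 25.7 and 21.8 in the wild-type pools. Every pool labelled Tg was below every wild-type pool. The means were 11.2 ± 1.52 and 25.4 ± 3.46 CPM (SD, n = 3 each); on the log2 scale the change was -1.14 ± 0.20 (edgeR adjusted p = 0.0348). Pkhd1 has the longest deposited model of the 8 markers, 14310 bases. In the pools labelled Tg, the slope of log2 differences from the wild-type mean on log2 transcript length was -0.30, -0.22 and -0.07, while in the wild-type pools it was -0.08, 0.07 and 0.01. With a length trend per library taken out, the log2 fold change of Pkhd1 was -0.56 (edgeR adjusted p = 0.214). With each library's length slope as a covariate it was -1.14 (0.0437), so the call was kept in that fit only. The Pkhd1 call also went without Tg pool 1 (-1.16, 0.112) or 2 (-1.02, 0.171) and without wild-type pool 1 (-1.01, 0.101), 2 (-1.10, 0.103) or 3 (-1.25, 0.130). Those fits called 0.203%, 0.0839%, 0.307%, 0.644% and 0% of all genes, in that order. Krt23, whose model is 1565 bases long, kept its call in both fits that take length into account, at 3.07 with each library's length slope as a covariate.

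The stretches of 250 bases before the RefSeq starts of these genes (build GRCm38.p6) are shown for Krt23 and Pkhd1, which changed in hepatocytes labelled Tg, and for Spp1 and Epcam, which lay farthest apart between plated hepatocytes and liver. Capitals mark matches, on either strand, to the letters searched: GTTAAT, a half-site of HNF1 factors; GGAATG, of TEAD factors; TGGGAA, of the Notch effector RBPJ; ACAATG, of SOX factors; and TGANTCA, of AP-1. None of these patterns overlaps another in the printed sequences. The table of starts held 5 of the 8 genes; Krt19, Sox9 and Cd24a were not matched.
Krt23, chr11:99493121-99493370, minus strand: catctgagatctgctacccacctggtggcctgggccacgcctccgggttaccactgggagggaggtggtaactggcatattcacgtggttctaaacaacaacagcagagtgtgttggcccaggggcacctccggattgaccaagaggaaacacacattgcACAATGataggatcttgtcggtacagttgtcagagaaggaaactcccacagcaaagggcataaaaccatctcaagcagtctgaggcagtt
Pkhd1, chr1:20618058-20618307, minus strand: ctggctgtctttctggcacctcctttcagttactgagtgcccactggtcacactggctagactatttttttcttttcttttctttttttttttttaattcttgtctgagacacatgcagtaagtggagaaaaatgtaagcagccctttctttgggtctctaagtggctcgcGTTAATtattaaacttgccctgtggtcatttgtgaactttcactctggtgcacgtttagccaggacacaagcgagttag
Spp1, chr5:104434861-104435110, plus strand: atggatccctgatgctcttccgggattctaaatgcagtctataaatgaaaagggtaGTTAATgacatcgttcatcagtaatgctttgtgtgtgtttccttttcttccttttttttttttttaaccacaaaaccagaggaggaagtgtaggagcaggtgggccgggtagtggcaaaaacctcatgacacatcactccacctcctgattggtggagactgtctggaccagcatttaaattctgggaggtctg
Epcam, chr17:87635729-87635978, plus strand: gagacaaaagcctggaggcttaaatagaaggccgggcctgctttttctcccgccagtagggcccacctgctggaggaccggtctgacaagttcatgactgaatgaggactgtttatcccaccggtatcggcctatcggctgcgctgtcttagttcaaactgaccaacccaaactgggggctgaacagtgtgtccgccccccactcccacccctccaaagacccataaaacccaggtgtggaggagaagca
Krt23 held ACAATG starting 90 bases before its start, which 10.7% of 32851 such stretches hold. Pkhd1 held GTTAAT at 79 bases before its start and Spp1 the same letters at 194 bases before; 6.43% of all stretches hold it. In Epcam, and in Krt7 and another Spp1 start that are not printed, none of the 5 patterns was found. The shares over all stretches were 12.6% for GGAATG, 21.6% for TGGGAA and 6.75% for TGANTCA. A match of letters is a description of sequence only.

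The other keratins and surface markers were higher in every pool labelled Tg than in any wild-type pool without passing the threshold. Krt19 stood at 25.6, 11.3 and 10.7 CPM against 9.55, 1.79 and 8.85, a log2 fold change of 1.31 ± 0.66 (edgeR adjusted p = 0.222). The gap between the groups was narrow, and wild-type pool 2 lay far below the other two. Krt7 stood at 1.80, 2.04 and 2.07 CPM against 0.661, 0.0824 and 0.882, a log2 fold change of 1.90 ± 0.66 (adjusted p = 0.129). The lowest Krt7 value rests on 3 reads.

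Cd24a stood at 0.833, 1.31 and 2.03 CPM in hepatocytes labelled Tg against 0.30, 0.275 and 0.484 in wild-type ones, with a log2 fold change of 1.99 ± 0.43 (edgeR adjusted p = 0.0595). Epcam stood at 0.699, 0.822 and 1.80 CPM against 0.240, 0.384 and 0.370, with a log2 fold change of 1.74 ± 0.47 (adjusted p = 0.0825). Both surface markers were below 0.5 CPM in wild-type cells, and the groups did not overlap. DESeq2, run as another test, called Krt7 (adjusted p = 0.0265), Epcam (0.0197) and Cd24a (0.00244) as well, 5 of 8 markers in all, beside 12.8% of all genes with an adjusted p in DESeq2. Without Tg pool 3, edgeR also called Epcam (1.27, 0.0458) and Cd24a (1.67, 0.0269), in a fit that called 35% of all genes. That was the only 1 of 6 fits with a pool left out to call either gene.

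Sox9 and Spp1 leaned the other way from the keratins. Spp1 stood at 294, 500 and 557 CPM in hepatocytes labelled Tg and at 591, 651 and 1062 in wild-type hepatocytes, a log2 fold change of -0.74 ± 0.28 (edgeR adjusted p = 0.152). Sox9 stood at 84.6, 84.6 and 98.0 CPM against 88.8, 148 and 151, a log2 fold change of -0.49 ± 0.21 (adjusted p = 0.175). The Sox9 ranges overlapped through wild-type pool 1, and neither gene passed the threshold.

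**Figure D2:**
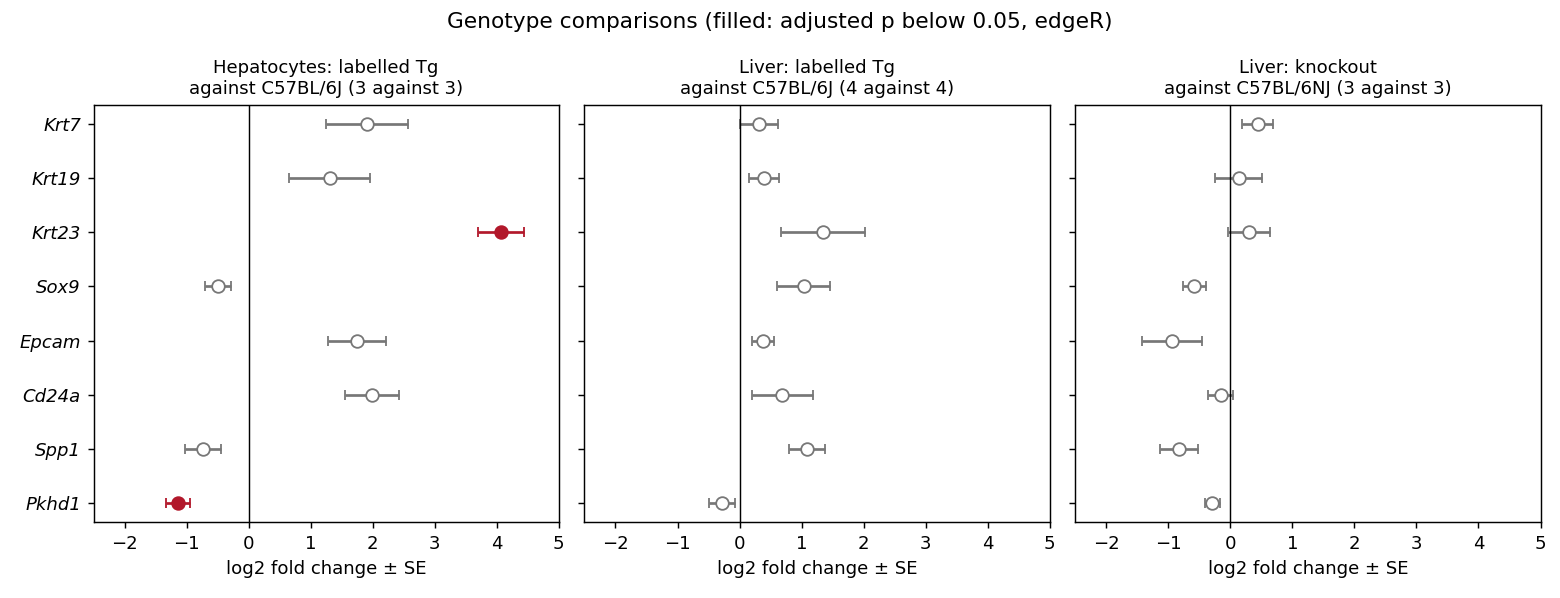
Log2 fold change ± SE from edgeR (horizontal axis) for each marker in the 3 genotype comparisons; filled points have an adjusted p below 0.05. Krt23 (4.07) and Pkhd1 (-1.14) in hepatocytes are the filled points, and no marker is filled in either liver comparison.

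Around the markers, genes of the related lists changed in small numbers in hepatocytes labelled Tg. Of 12 other keratins 7 were tested and 2 rose, Krt20 (1.88 ± 0.29, edgeR adjusted p = 0.0298) and Krt17 (1.90 ± 0.37, 0.0483). The simple epithelial keratin genes Krt8 and Krt18, which hepatocytes themselves express, were not among them. Of 19 other cholangiocyte genes tested, Elf3, an epithelial transcription factor gene, rose from 18.1 ± 1.47 to 47.1 ± 13.4 CPM (SD, n = 3 each; log2 fold change 1.42, adjusted p = 0.0355) and none fell. Of 11 progenitor and injury-response genes, 3 rose: the fetal liver gene Afp (1.71), Cd44 (1.27), which encodes a receptor of osteopontin, and the fetal RNA-binding protein gene Igf2bp3 (2.45). Of the same 11 genes 1 fell: Itgb1, an integrin chain that also binds osteopontin (by 1.00 on the log2 scale, edgeR adjusted p = 0.0473). Itgb1 was not called with library totals in place of TMM scaling. Of 14 cilium and polycystic liver genes, Ift88, a gene of ciliary transport, fell by 1.38 (adjusted p = 0.0466; not called with library totals), and the median of that list was -0.40. Of 17 Hippo-YAP genes Amotl2 rose (0.62) and Lats2 fell by 1.06, and none of 7 Notch genes passed the threshold.

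Markers of other cells also differed between these hepatocyte pools. Summed CPM of the 14 macrophage markers was 481 to 858 in pools labelled Tg and 285 to 441 in wild-type pools, with all 13 tested genes above 0 (median log2 fold change 0.88) and none past the threshold. The 7 mesothelial markers summed to 0.941 to 1.13 against 0.481 to 0.598, and 7 B cell markers to 9.92 to 15.8 against 3.48 to 4.56. Most of the B cell sum in pools labelled Tg was Ighm, the immunoglobulin M heavy chain gene, which rose from 1.14 ± 0.13 to 9.01 ± 1.83 CPM (SD, n = 3 each; log2 fold change 3.01, edgeR adjusted p = 0.00582). Of 7 adipocyte markers, which summed to 21.8 to 49.4 CPM against 4.42 to 6.15, 3 were tested and 2 rose. These were the lipid droplet gene Cidec (2.79 ± 0.35, adjusted p = 0.0186) and the complement factor gene Cfd (5.56 ± 0.79, 0.0247), while the adipocyte-defining Adipoq was at 0 in all 6 hepatocyte pools. The 12 skeletal muscle markers summed to 17.8 to 47.1 CPM against 4.89 to 12.6, with 7 of the 12 at 0 in all pools labelled Tg. The 12 stellate cell markers summed to 40.3 to 66.0 CPM against 32.6 to 35.5. Endothelial (56.9 to 81.1 against 60.7 to 76.5) and erythroid sums (19.5 to 25.5 against 23.1 to 39.0) overlapped. The part of these cells in the marker values was not tested.

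In livers labelled Tg, none of the 8 markers passed the edgeR threshold, where 1.33% of 14110 genes did. At an unadjusted p below 0.05 there were 2 markers, Sox9 and Spp1, beside 20.3% of all genes, and DESeq2 called 1, Spp1, beside 8.41%. The 2 groups overlapped in all 8 markers, while 13.4% of all genes had no overlap. Estimates were above 0 for 7 of the 8, with a median of 0.54. With library totals in place of TMM scaling, the median over all genes moved from about 0 to 0.13 and that of the markers to 0.69.

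Spp1 had the lowest adjusted p of the markers in these livers. It stood at 52.1, 28.2, 79.9 and 89.2 CPM in livers labelled Tg and at 29.6, 29.1, 21.7 and 25.2 in C57BL/6J livers, a log2 fold change of 1.09 ± 0.29 (edgeR adjusted p = 0.0907). Pool 2 labelled Tg lay within the wild-type range and the other pools above it. Without pool 2 the estimate was 1.32 (edgeR adjusted p = 0.0150), with 2.59% of all genes called. Of 8 fits with a pool left out, only that 1 called Spp1. Estimates in the 8 fits ran from 0.88 to 1.32, with an adjusted p of up to 0.223. Sox9 stood at 6.28, 7.33, 21.8 and 20.9 CPM against 8.61, 4.38, 4.19 and 7.45, a log2 fold change of 1.03 ± 0.43 (adjusted p = 0.218). Pools 3 and 4 labelled Tg were high in Sox9 and Spp1, and pools 1 and 2 lay within the wild-type range for Sox9.

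Krt23 varied most among livers labelled Tg, at 0.983, 9.44, 17.3 and 5.37 CPM, against 1.2, 3.28, 3.58 and 3.52 in C57BL/6J livers. The livers labelled Tg thus held both the lowest and the highest Krt23 value of the 14 livers, and the log2 fold change was 1.35 ± 0.67 (edgeR adjusted p = 0.297). Cd24a stood at 2.13, 2.86, 10.4 and 3.42 CPM against 2.51, 4.35, 1.71 and 1.88; its estimate of 0.69 ± 0.49 (adjusted p = 0.469) was -0.02 without pool 3 labelled Tg. Krt19, at 5.24 to 11.4 CPM against 3.99 to 5.85, was also highest in that pool, with a log2 fold change of 0.40 ± 0.24 (adjusted p = 0.384). Pool 3 labelled Tg was therefore the highest of the 8 livers for Krt7, Krt19, Krt23, Sox9, Epcam and Cd24a.

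Epcam ran at 7.65, 8.44, 9.27 and 7.0 CPM in livers labelled Tg and 4.79, 5.41, 5.07 and 7.39 in C57BL/6J livers, a log2 fold change of 0.38 ± 0.18 (edgeR adjusted p = 0.273). The single overlapping control was pool 4. Krt7 (0.31 ± 0.31, adjusted p = 0.609) and Pkhd1 (-0.28 ± 0.21, 0.496) had the smallest estimates. Pkhd1 ran from 17.0 to 31.1 CPM in livers labelled Tg and from 18.9 to 36.3 in their controls.

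Few genes of the lists around the markers passed the threshold in livers labelled Tg. Of 22 other cholangiocyte genes tested, Onecut2, which encodes a factor of biliary and hepatic development, fell by 0.83 on the log2 scale (edgeR adjusted p = 0.0443), a call that was not made with library totals; 18 of the 22 estimates were above 0 (median 0.53). Ccn2, a YAP target gene, was the 1 Hippo-YAP gene of 16 to rise (1.12, adjusted p = 0.0369). None of 13 progenitor and injury-response genes, 12 Notch genes, 14 cilium genes or 12 genes of osteopontin receptors and partners passed. Of 11 stellate cell markers tested, 2 rose: Pdgfrb (0.86, adjusted p = 0.0294), a growth factor receptor gene, and Lum (1.74, 0.0464), a matrix proteoglycan gene. Among summed markers of other cells, the 14 macrophage markers summed to 444 to 798 CPM against 253 to 489, the 12 stellate cell markers to 668 to 893 against 436 to 730, and the 16 hepatocyte markers to 93578 to 109242 against 126985 to 137752. Their part in the ductal marker values was not tested.

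In A1cf -/- livers no marker passed the edgeR threshold either, beside 2.98% of 15942 genes. The count at an unadjusted p below 0.05 was 3 (Sox9, Spp1 and Pkhd1), beside 18.4% of all genes, and DESeq2 called 0, beside 5.3%. The groups did not overlap for Krt7, Sox9 and Spp1, 3 of 8, where 23.9% of all genes had no overlap. The median of the 8 estimates was -0.22.

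Sox9 stood at 10.2, 11.5 and 10.5 CPM in knockout livers and 13.1, 13.2 and 21.7 in C57BL/6NJ livers, a log2 fold change of -0.58 ± 0.18 (edgeR adjusted p = 0.129). Spp1 stood at 16.3, 14.6 and 19.1 CPM against 19.5, 20.6 and 48.7, a log2 fold change of -0.83 ± 0.31 (adjusted p = 0.183). For both genes the knockout pools lay just below the 2 lower controls, and C57BL/6NJ pool 3 was well above all others. Without the filter on low counts edgeR called both, Sox9 at an adjusted p of 0.0166 and Spp1 at 0.00731, with 4.09% of all genes called. With each pool left out in turn, neither gene was called in any of 6 fits. Estimates then ran from -0.70 to -0.31 for Sox9 (edgeR adjusted p up to 0.356) and from -1.05 to -0.28 for Spp1 (up to 0.412).

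Epcam was near 1 CPM in this sequencing study, at 0.784, 0.939 and 0.744 CPM in knockout livers and 0.502, 1.65 and 2.52 in C57BL/6NJ livers, with a log2 fold change of -0.95 ± 0.48 (edgeR adjusted p = 0.334). The knockout pools lay between the lowest and the middle control. Krt19 (0.14 ± 0.38, adjusted p = 0.888), Krt23 (0.30 ± 0.34, 0.689), Cd24a (-0.16 ± 0.21, 0.736), Pkhd1 (-0.29 ± 0.12, 0.249) and Krt7 (0.44 ± 0.26, 0.401) had estimates within 0.5 of 0. Of 20 other cholangiocyte genes tested, Cdh1, the gene of the epithelial adhesion protein E-cadherin, fell by 1.2 on the log2 scale (adjusted p = 0.0216) and none rose. Among 14 cilium and polycystic liver genes Dzip1l, a gene of polycystic kidney disease, rose (1.21, adjusted p = 0.0240). The 7 adipocyte markers summed to 119 to 244 CPM in knockout livers against 22.8 to 76.9, and their part in the marker values was not tested.

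The difference between the effect of the Tg label in liver and in hepatocytes was tested directly, on the same pools as above. The 2 materials differ together in age, isolation, plating and the cells present, which cannot be told apart here. None of the 8 markers passed (edgeR; 0.842% of 15565 genes did), with 6 at an unadjusted p below 0.05 (22.8% of all genes) and 3 called by DESeq2 (7.45%). The difference in log2 fold change, liver minus hepatocytes, was -2.95 ± 0.89 for Krt23 (adjusted p = 0.105), -1.52 ± 0.41 for Epcam (0.0820), 1.65 ± 0.43 for Spp1 (0.0781) and 1.33 ± 0.53 for Sox9 (0.168). Spp1 and Sox9 had estimates of opposite sign in the 2 materials. Without hepatocyte pool 3 labelled Tg, edgeR called Krt23 (-3.26, adjusted p = 0.0245), Epcam (-1.11, 0.0368) and Spp1 (1.75, 0.0233) in a fit that called 22.4% of all genes. Without liver pool 2 labelled Tg it called Spp1 (1.88, 0.020) and 1.48% of all genes. Of 14 fits with a pool left out, Spp1 was called in 2, and Krt23 and Epcam in 1 each.

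The Tg-label effect and the knockout effect in liver come from different substrains and sequencing studies, which cannot be told apart from genotype here. For the Tg-label effect minus the knockout effect, again none of the 8 passed in edgeR, beside 1.02% of 16295 genes. At an unadjusted p below 0.05 there were 3 (16.9% of all genes), and DESeq2 called 1 (5.05%). The differences were 1.90 ± 0.49 for Spp1 (edgeR adjusted p = 0.0749), 1.60 ± 0.55 for Sox9 (0.165), 1.3 ± 0.51 for Epcam (0.209) and 1.04 ± 0.90 for Krt23 (0.599). Spp1 passed without liver pool 2 labelled Tg (2.14, adjusted p = 0.0188, 2.4% of all genes) and Epcam without C57BL/6NJ pool 1 (1.70, 0.0323, 1.24%). Each of these 2 genes was called in only 1 of 14 fits with a pool left out.

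Wild-type plated hepatocytes and wild-type C57BL/6J livers differed in 6 of the 8 markers, in a comparison in which 72% of 14824 genes passed the edgeR threshold and 73.2% had groups without overlap (5 of the 8 markers had none). The share of markers called was thus near that of all genes. Both control groups also enter the comparisons above. Age, isolation, plating and the cells present differ together here and cannot be told apart. The markers moved in both directions: Sox9 and Spp1 were far higher in plated hepatocytes, while Epcam, Cd24a, Krt7 and Krt23 were lower.

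Spp1 stood at 768 ± 257 CPM (SD, n = 3) in hepatocytes and 26.4 ± 3.69 (n = 4) in livers, a ratio of 29.1 (log2 fold change 4.48 ± 0.22, edgeR adjusted p = 2.96e-07). Sox9 stood at 129 ± 35.1 against 6.16 ± 2.21 CPM, a ratio of 21 (4.01 ± 0.29, adjusted p = 2.32e-06). For both genes every hepatocyte pool of either genotype was above every one of the 14 livers. Epcam went from 5.67 ± 1.18 CPM in liver to 0.332 ± 0.0794 in hepatocytes (-4.45 ± 0.31, adjusted p = 1.73e-06) and Cd24a from 2.61 ± 1.21 to 0.353 ± 0.114 (-3.24 ± 0.43, 0.0001). These 4 calls held in all 14 alternatives run, whichever pool was left out.

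Krt7 (-1.64 ± 0.60, edgeR adjusted p = 0.0323) and Krt23 (-1.09 ± 0.38, 0.0271) passed by less. The Krt7 call was lost without hepatocyte pool 1 (0.0528) or liver pool 1 (0.0565), 3 (0.0658) or 4 (0.0663), and with a length trend taken out (0.0519). The Krt23 call was lost without hepatocyte pool 1 (0.0576), 2 (0.0547) or 3 (0.0887) or liver pool 3 (0.0946) or 4 (0.0867), with all 6 groups in 1 fit (0.141) and without the filter on low counts (0.05005). With library totals in place of TMM, which moved the median of all genes from -0.04 to 0.33, both estimates stayed below 0 (-1.28 and -0.72) and neither passed.

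Krt19 and Pkhd1 did not differ beyond the spread between pools. The 3 hepatocyte pools of Krt19 lay on both sides of the liver range, with an estimate of 0.09 ± 0.48 (edgeR adjusted p = 0.878); without hepatocyte pool 2 it was 0.56 (0.0381). Pkhd1 stood at 25.4 ± 3.46 CPM in hepatocytes and 27.1 ± 7.13 in livers (-0.45 ± 0.21, adjusted p = 0.0802), passing without hepatocyte pool 1 (-0.59, 0.0472) or liver pool 4 (-0.52, 0.0338). Its level in plated hepatocytes was thus near that of whole liver, unlike Epcam and Cd24a.

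**Figure D3:**
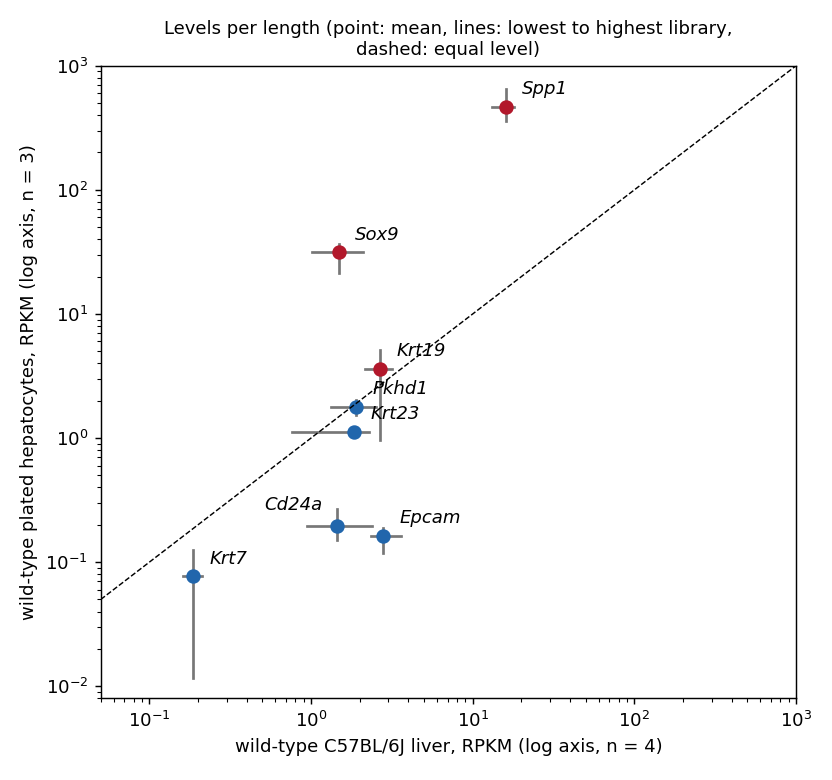
Mean RPKM of each marker in wild-type C57BL/6J liver (horizontal, 4 pools) and wild-type plated hepatocytes (vertical, 3 pools), both on log axes, with lines from the lowest to the highest pool and a dashed line of equal level. Spp1 (16.0 and 466) and Sox9 (1.49 and 31.3) lie above the line, and Epcam (2.78 and 0.163) and Cd24a (1.44 and 0.195) below it.

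Related genes split in the same comparison. Of 22 other cholangiocyte genes tested, 8 were higher in plated hepatocytes and 11 lower; the tight junction gene Cldn4 was higher by 9.72 ± 0.22 on the log2 scale and the water channel gene Aqp1, which endothelium also expresses, had a log2 fold change of -6.44 ± 0.21. Of 17 Hippo-YAP genes, 14 were higher, among them Ccn1 (5.64), Ccn2 (6.54) and Ajuba (4.56), and 1 was lower. Of 13 progenitor and injury-response genes 7 were higher, Tnfrsf12a by 6.50 and Sox4 by 4.38, and 3 lower. Krt8 (4.07) and Krt18 (4.45) were among 4 of 7 other keratins that were higher, and none was lower. All 16 hepatocyte markers were lower in the plated cells, as were 10 of 10 endothelial and 10 of 12 stellate cell markers. Of 13 macrophage markers tested, 8 were lower and 3 higher. With library totals the counts were the same for the cholangiocyte, Hippo-YAP, keratin and hepatocyte lists, and 8 progenitor genes were higher.

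The control livers of the 2 sequencing studies were also compared, after the marker values had been seen, because Krt19 and Epcam sat at different levels in them. Substrain and sequencing study cannot be told apart here, and the result bears on any level set across the studies. In C57BL/6J against C57BL/6NJ livers, 3 of 8 markers passed the edgeR threshold, beside 19.8% of 15396 genes, and 3 of 8 had groups without overlap, beside 32.4% of genes. Krt19 stood at 3.99, 5.85, 5.07 and 4.93 CPM in C57BL/6J livers against 0.695, 1.33 and 1.27 in C57BL/6NJ livers (log2 fold change 2.13 ± 0.27, adjusted p = 0.000588). Without the muscle-rich C57BL/6J pool 2 it was 2.06 (adjusted p = 0.000677). The knockout livers, from the second study, were also low in Krt19, at 1.31, 0.730 and 1.62 CPM.

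Epcam was higher in C57BL/6J than in C57BL/6NJ livers as well (1.82 ± 0.44, edgeR adjusted p = 0.0186), a call lost without C57BL/6NJ pool 2 (1.87, 0.0711). Sox9 was lower in C57BL/6J livers (-1.40 ± 0.29, adjusted p = 0.00911), and Pkhd1 did not pass (0.60 ± 0.19, 0.0586), though it did without C57BL/6J pool 4 (0.72, 0.0175), with DESeq2 (0.0207), with all 6 groups in 1 fit (0.0376) and without the filter (0.0499). Of 22 other cholangiocyte genes tested 8 were higher in C57BL/6J livers and none lower, among them Slc5a1 (3.25), Ggt1 (3.82) and Cldn7 (2.74). Krt20 was higher by 7.14 and Krt8 had a log2 fold change of -1.22. The shifts between the 2 sets of controls thus went in both directions.

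Pool-to-pool variation of the markers was compared among the 14 livers. Deviations of log2(CPM + 0.5) from each group's mean were correlated over the 28 pairs of markers with a median Pearson r of 0.34 (n = 14 libraries that share preparation and depth within a study). The highest were Krt7 with Krt23 (r = 0.81, Spearman rho = 0.49), Sox9 with Spp1 (r = 0.71, rho = 0.72) and Krt19 with Cd24a (r = 0.70, rho = 0.63). Without the 2 pools farthest from the median of the first gene these were 0.53, 0.78 and 0.49, so of these 3 pairs only Sox9 with Spp1 did not drop. The lowest was Epcam with Pkhd1 (r = -0.37, rho = -0.51).

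**Figure D4:**
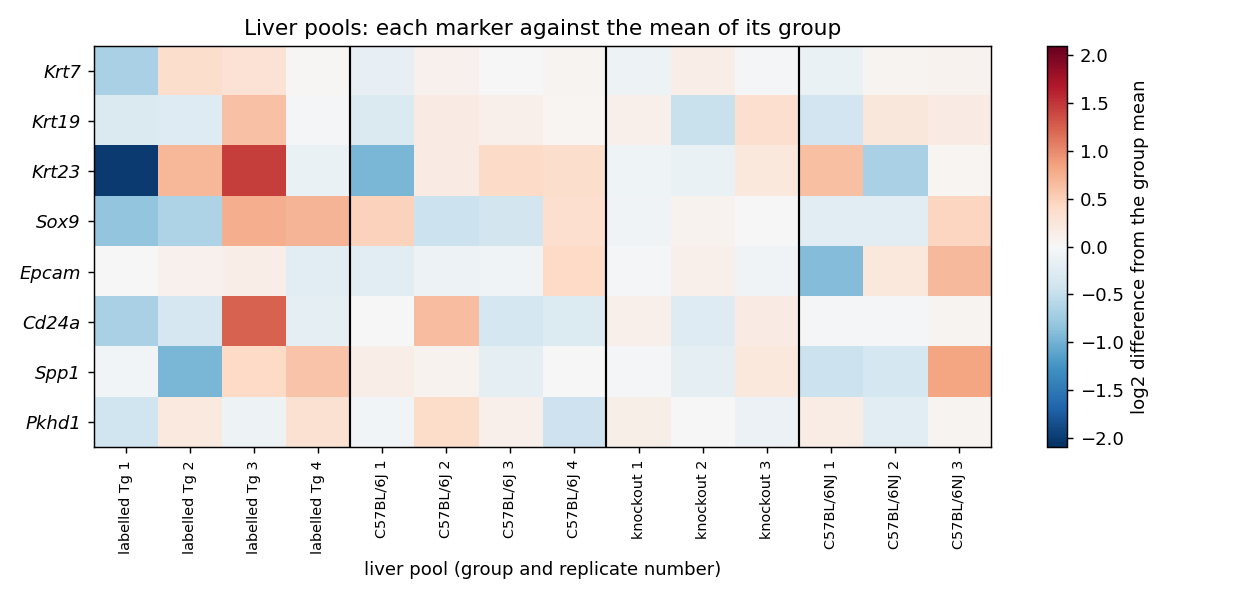
Log2 difference of each marker (rows) in each of the 14 liver pools (columns, by group and replicate) from the mean of its group; red is above and blue below. Krt23 in pools 1 and 3 labelled Tg (-2.01 and 1.4) and Cd24a in pool 3 (1.24) are the largest deviations.

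The genes most like each marker in these deviations, out of 12315 compared, were none of the 8 markers and none of the other cholangiocyte genes. They were Pdha1, Ehd1 and Smpdl3a for Krt23 (highest r = 0.96), Bri3bp, Lsg1 and Agfg1 for Sox9 (0.97), Esco1, Cltc and S1pr2 for Spp1 (0.97), and Cebpz, Ppme1 and Mga for Epcam (0.95). For Cd24a they were Tagln2, Abcc1 and Sptan1 (0.96), for Krt7 Tnfaip8l1, Cdk5rap2 and Itgb3 (0.95), for Krt19 Zgrf1, Pvt1 and Mfap4 (0.89), and for Pkhd1 Stat5b, Carf and Col4a5 (0.91). Each r is the highest of many over 14 libraries and is given as a description.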

How the data were processed

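RNA was measured in 20 pooled libraries by oligo(dT)-selected sequencing on an Illumina HiSeq2000. Per the submitters' processing notes, the authors used bcl2fastq, STAR 2.0.4b, GRCm38 and featureCounts 1.45 of Subread; the strand setting, annotation release and treatment of multiply aligned reads are not given in the sources used here. The authors deposited raw read counts per gene, together with CPM (counts scaled to the library total) and RPKM (CPM per kilobase of gene length). Recomputing the deposited CPM and RPKM from the deposited counts gave differences of at most 4.9e-10 and 1.6e-10. Symbols came from a table of Ensembl identifiers, which matched 40254 of 41388 genes, among them all 8 markers.

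For each comparison genes were kept by filterByExpr (counts of at least 10, totals of at least 15) and normalised with TMM factors. In R 4.3.3, edgeR 4.0.16 gave two-sided quasi-likelihood tests, with Benjamini-Hochberg adjustment over all genes tested and 0.05 as threshold. SE is the estimate divided by the square root of F. Levels are deposited CPM or RPKM, as mean ± SD. The markers, the related gene lists and the rule for naming genes (up to 3 of a list with the smallest p among those called, A1cf, and the 3 genes most like each marker) were chosen with earlier results of these data known. Likeness used log2 of TMM-scaled CPM plus 0.5, for genes of mean CPM of at least 1. The fit was tested on simulated data. Alternatives were DESeq2 1.42.0, other scalings, no filter, all 6 groups in 1 fit, a replicate block, 2 length corrections, muscle-rich pools left out and each pool left out. No replicate pair agreed within counting noise. The 10 CLIP libraries enter no comparison.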

Additional observations from a re-analysis of the deposited data

Results flagged for a closer look

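A pool was set apart when the gap to its nearest neighbour, as a share of the group's range, passed Dixon's 95% critical value. Over the 17 sets tested, each 1 marker in 1 group of 4 to 10 libraries, chance alone sets apart about 1 in 20 where values are normally distributed. In C57BL/6J livers, Krt23 of pool 1 stood at 1.2 CPM, below the other 3 pools. In livers labelled Tg, Cd24a of pool 3 stood at 10.4 CPM, above the other 3. In the CLIP libraries of hepatocytes labelled Tg, in which RNA was recovered with A1CF, Krt23 stood at 122 CPM in library 10, which is a single read, and no read of the other 7 markers was present in any of the 10 libraries. These libraries held only 6151 to 10902 counts each. A single read among libraries without any is always set apart by this rule, so that flag was fixed in advance.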

How the results depend on the processing

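Markers called in hepatocytes were 2 of 8. There were 5 with DESeq2 (12.8% of all genes), 6 with all 6 groups in 1 fit (25%) and 3 without the filter (Cd24a added, edgeR adjusted p = 0.0398, 2.77%). The replicate block left 1 (Pkhd1 was lost, edgeR adjusted p = 0.0771, 0.153% of all genes). There was 1 with a length trend as offset (2.93% of all genes) and 4 with a length-slope covariate (6.44%), which turned Krt19 to -0.094. With each pool left out there were 0 to 4 (0% to 35%). In livers labelled Tg, where 0 were called, there was 1 with DESeq2 (8.41% of all genes) and 1 with all 6 groups (5.74%). With a pool left out there were 0 to 1 (0.187% to 3.92%). In knockout livers 2 were called without the filter (4.09% of all genes). For the difference between liver and hepatocytes, 0 became 3 with DESeq2 (7.45% of all genes), 1 with library totals (2.24%) and 2 with all 6 groups (5.15%). With a pool left out there were 0 to 3 (0.0315% to 22.4%). For Tg label minus knockout there was 1 with DESeq2 (5.05%), 1 without the filter (0.828%) and 0 to 1 with a pool left out (0.145% to 2.72%). Leaving out a pool turned Cd24a in livers labelled Tg (-0.015 to 1.02), and Krt19 (-0.14 to 0.40) and Krt23 (-0.018 to 0.73) in knockout livers, and Krt19 between hepatocytes and livers (-0.30 to 0.56). Pkhd1 there was 0.17 with the length offset. Causes were not tested. Over all genes, the 434 calls in hepatocytes became 1816 with DESeq2, 0 without wild-type pool 3 and 4934 without pool 3 labelled Tg. The 188 in livers labelled Tg ranged from 27 (without C57BL/6J pool 3) to 1287 (DESeq2), and the 475 in knockout livers from 42 (all 6 groups) to 1079 (no filter). The 131 for liver minus hepatocytes ranged from 5 (without hepatocyte pool 2 labelled Tg) to 3545 (without pool 3), the 167 for Tg label minus knockout from 15 (without muscle-rich pools) to 799 (DESeq2), and the 3052 between control livers from 1762 to 3753. With library totals, the share of calls that were higher went from 72.9% to 88.1% in livers labelled Tg, 49.4% to 60.7% in hepatocytes against livers, 46.6% to 89.1% for liver minus hepatocytes and 59.9% to 78.5% for Tg label minus knockout. Between pools of equal replicate number, correlations of deviations were 0.77, -0.64 and -0.008 in hepatocytes and -0.12 to 0.12 in livers. With 3 or 4 pools per group these values do not settle whether the numbers pair pools. Krt7 rests on 3 to 67 reads per library.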
